A study of Mus musculus with 4 samples.

Results

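Genes of the Z-disc, the protein plate that joins neighbouring sarcomeres, were examined in cultured primary myoblasts of WT and Tet2 KO mice. The genes were taken by name and were Actn1, Actn2, Actn3, Actn4, Ldb3, Myoz1, Myoz2, Myoz3, Myot and Tcap. All 10 were found in the deposited table, which held 24445 genes. Both groups were of the C57BL/6 strain and held 2 RNA libraries each. Tet2 KO mice came from a line in which homologous recombination had removed exon 3 of Tet2, the gene of an enzyme that oxidises methylated cytosine in DNA. WT mice carried the intact gene, and the mice were males of 8 to 10 weeks where the methods stated nothing else. Satellite cells, the stem cells of muscle, were sorted as CD34+ and Integrin a7+ cells without CD45, CD11b, CD31 and Sca1. The labels name hindlimb muscle and the methods name TA muscle as their source. They were then grown on collagen in proliferation medium for at least 3 days and harvested as MyoD+ myoblasts.

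The table gave 1 expression value per gene and group, as FPKM (fragments per kilobase of transcript, scaled to the number of mapped reads). No value per library was at hand, so no standard deviation and no test stands beside any difference, and the depth of the libraries is unknown. Differences are given as the linear fold of FPKM or as log2((Tet2 KO FPKM + 1) / (WT FPKM + 1)), named log2 ratio here, which understates differences of genes with low levels. A gene was counted as lower or higher when this log2 ratio reached 2-fold, among genes with a mean of at least 1 FPKM over both groups. Of the 11692 genes at that level, 142 (1.21%) were lower and 243 (2.08%) were higher in Tet2 KO, and the median log2 ratio was -0.0044. Tet2 itself had 6.64 FPKM in WT and 5.79 FPKM in Tet2 KO. Its value covers all exons, so it does not check the group labels.

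In striated muscle the Z-disc anchors the barbed ends of actin filaments from both sides and the end of titin, the giant elastic protein. Alpha-actinin crosslinks these filaments. Actn2 and Actn3 encode the muscle alpha-actinins, of which Actn3 is the form of fast fibres. Actn1 and Actn4 encode the broadly expressed alpha-actinins, which crosslink actin at adhesions and in stress fibres of most cells. Ldb3 (also called ZASP or Cypher), the myozenins (Myoz1, Myoz2 and Myoz3), Myot (myotilin) and Tcap (telethonin) bind to this scaffold. Myoblasts make little of the muscle forms until they leave the cell cycle and differentiate.

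Of the 10 genes, 8 had a mean of at least 1 FPKM. Of these 8, 5 were lower in Tet2 KO by at least 2-fold and 0 were higher, beside 1.21% and 2.08% of all genes. The 5 genes were Actn2, Actn3, Ldb3, Myoz2 and Tcap, all muscle forms. Myot, also a muscle form, had a log2 ratio of -0.93 and lay just above the limit. Actn1 and Actn4 had log2 ratios of 0.02 and 0.29. Myoz1 and Myoz3 were under 1 FPKM in both groups. In RNA of whole cultures, fewer cells that express a gene and less RNA per cell cannot be told apart.

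**Figure D1:**
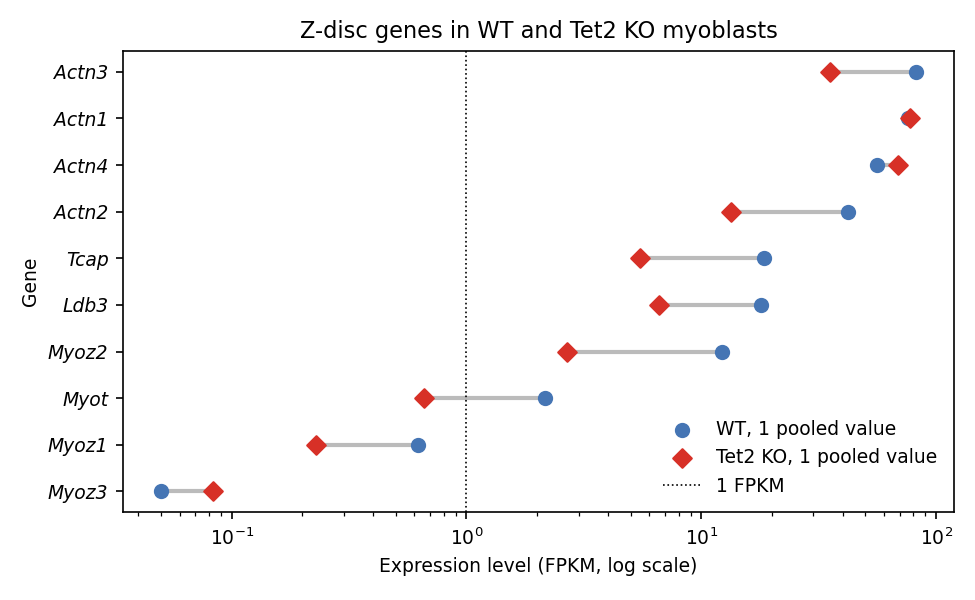
Expression level of the 10 Z-disc genes, 1 pooled value per group; the x axis is FPKM on a log scale, circles are WT and diamonds are Tet2 KO. The muscle genes from Actn3 down to Myoz1 lie to the left in Tet2 KO, whereas Actn1 and Actn4 nearly overlap and Myoz3 is far below 1 FPKM in both groups.

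The muscle alpha-actinins were compared first. In mm9 coordinates, Actn3 occupies the minus strand of chromosome 19 between 4861216 and 4877909 and has 21 exons in its longest annotated transcript. It had 82.2 FPKM in WT, the highest level among the 10 genes, and 35.4 FPKM in Tet2 KO, 2.32-fold lower (log2 ratio of -1.19). Actn2, which occupies chromosome 13 between 12361694 and 12432999 and also has 21 exons on the minus strand, had 42.3 FPKM in WT and 13.4 FPKM in Tet2 KO. This was 3.16-fold lower, with a log2 ratio of -1.59. The level of Actn3 was thus 1.94 times that of Actn2 in WT and 2.65 times in Tet2 KO. Both muscle forms were present in WT at levels like those of the broadly expressed forms, in cells harvested from proliferation medium.

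The broadly expressed alpha-actinins were set against them. Actn1 (chromosome 12, 81268529 to 81361368, minus strand, 21 exons) had 76.2 FPKM in WT and 77.4 FPKM in Tet2 KO. Actn4 (chromosome 7, 29666675 to 29747299, minus strand, 21 exons) had 56.1 FPKM in WT and 68.9 FPKM in Tet2 KO, 1.23-fold higher. Of all genes with a mean of at least 1 FPKM, 92.0% had a log2 ratio lower than that of Actn4, so Actn4 lay within the central 90% of genes, from -0.40 to 0.44. The mean log2 ratio was -1.39 for Actn2 and Actn3 and 0.16 for Actn1 and Actn4, a difference of -1.55.

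Because FPKM is scaled by transcript length, the 4 levels were also summed. All alpha-actinin transcripts together had 256.8 FPKM in WT and 195.0 FPKM in Tet2 KO. Actn2 and Actn3 made up 48.5% of this sum in WT and 25.03% in Tet2 KO. The share of Actn2 was 16.5% and 6.86%, and that of Actn3 was 32.0% and 18.2%. Actn1 and Actn4 together had 132.3 FPKM in WT and 146.2 FPKM in Tet2 KO. The smaller sum in Tet2 KO therefore came from the muscle forms, whose summed level was 124.4 FPKM in WT and 48.8 FPKM in Tet2 KO.

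**Figure D2:**
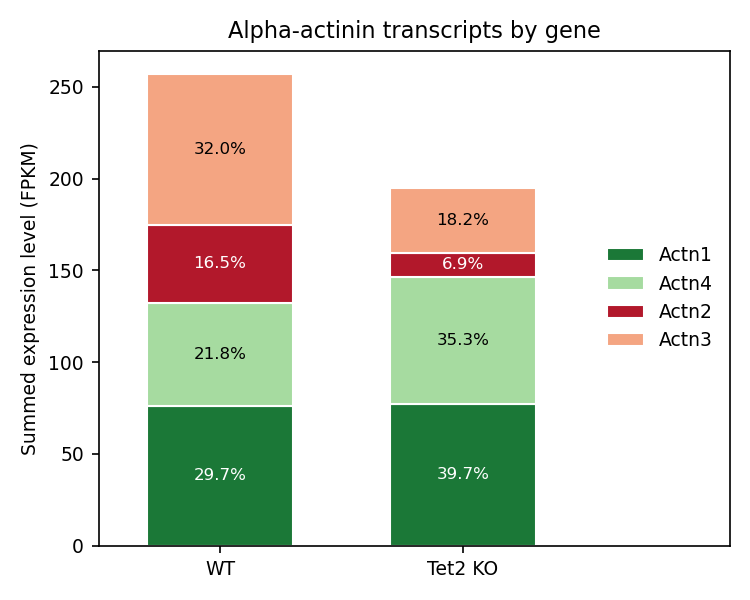
Summed FPKM of the 4 alpha-actinin genes in WT and Tet2 KO, 1 pooled value per gene and group; the y axis starts at 0 and the percentages are shares of each bar. Actn2 and Actn3 take 48.5% of the WT bar and 25.03% of the Tet2 KO bar, while the Actn1 segments have nearly the same height.

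Alpha-actinin genes resemble each other, which can divide reads between them. Coding sequences of the 4 genes were 75.1% to 80.5% identical in the annotated transcripts of mm9. The longest stretch shared exactly was 65 bases between Actn1 and Actn4 and 51 bases between Actn2 and Actn3. Between a muscle form and a broadly expressed form it was at most 38 bases. How the authors counted fragments that match more than 1 gene is not given in the sources used here.

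Ldb3 and Tcap encode proteins that hold the plate together. Ldb3 carries a PDZ domain that binds alpha-actinin, and lies on chromosome 14 from 35339885 to 35401867 with 14 exons in its longest transcript. It had 17.97 FPKM in WT and 6.61 FPKM in Tet2 KO, 2.72-fold lower (log2 ratio of -1.32). Tcap, a small protein that clamps the ends of a pair of titin molecules, is encoded by 2 exons on chromosome 11 from 98245125 to 98246267. Its level was 18.5 FPKM in WT and 5.48 FPKM in Tet2 KO, 3.38-fold lower (log2 ratio of -1.59). Both genes had about the same level in WT.

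The myozenins, or calsarcins, tether the phosphatase calcineurin to alpha-actinin. Only Myoz2, the form of slow and cardiac muscle, exceeded 1 FPKM, and it made up 94.8% of the summed myozenin FPKM in WT. Myoz2 has 6 exons on the minus strand of chromosome 3, between 122709124 and 122737905. Its level was 12.2 FPKM in WT and 2.67 FPKM in Tet2 KO. This 4.58-fold difference (log2 ratio of -1.85) was the largest among the 10 genes, and 13 of the 11692 genes had a lower log2 ratio. Myoz1 and Myoz3 are forms of fast muscle. Myoz1, on chromosome 14 from 21468324 to 21475762, had 0.622 FPKM in WT and 0.229 FPKM in Tet2 KO. Myoz3 had 0.0499 FPKM and 0.0837 FPKM, too low for a fold to be read. The 3 coding sequences were 60.8% to 62.0% identical, with no shared stretch longer than 12 bases.

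Myot encodes an immunoglobulin-domain protein that binds alpha-actinin and filamin C. It had 2.15 FPKM in WT and 0.657 FPKM in Tet2 KO, 3.27-fold lower on the linear scale and -0.93 as log2 ratio. Its mean reached 1 FPKM only through the WT level. It was counted as lower with a pseudocount of 0.1, with none, or with values rescaled to TPM, which gives both groups the same total over all genes. The FPKM totals were already alike, 566910 in WT and 565529 in Tet2 KO. Rescaling raised the values of both groups, so that the pseudocount of 1 weighed less.

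Among themselves the 6 muscle genes with a mean of at least 1 FPKM spanned a 38.2-fold range of WT level, from Myot to Actn3. Their log2 ratios spanned 0.92, from -1.85 for Myoz2 to -0.93 for Myot, with a median of -1.45. Over all 8 muscle genes, Myoz1 and Myoz3 included, the median was -1.25. Without a pseudocount the 6 log2 ratios ran from -2.20 for Myoz2 to -1.21 for Actn3. The summed level of the 8 muscle genes in Tet2 KO was 36.7% of that in WT (64.5 against 176.0 FPKM). Actn3, the most abundant of the 6, thus had the smallest relative difference on the linear scale. Counted from the lowest log2 ratio, Tcap took place 24, Actn2 25, Ldb3 64, Actn3 101 and Myot 160 among the 11692 genes.

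**Figure D3:**
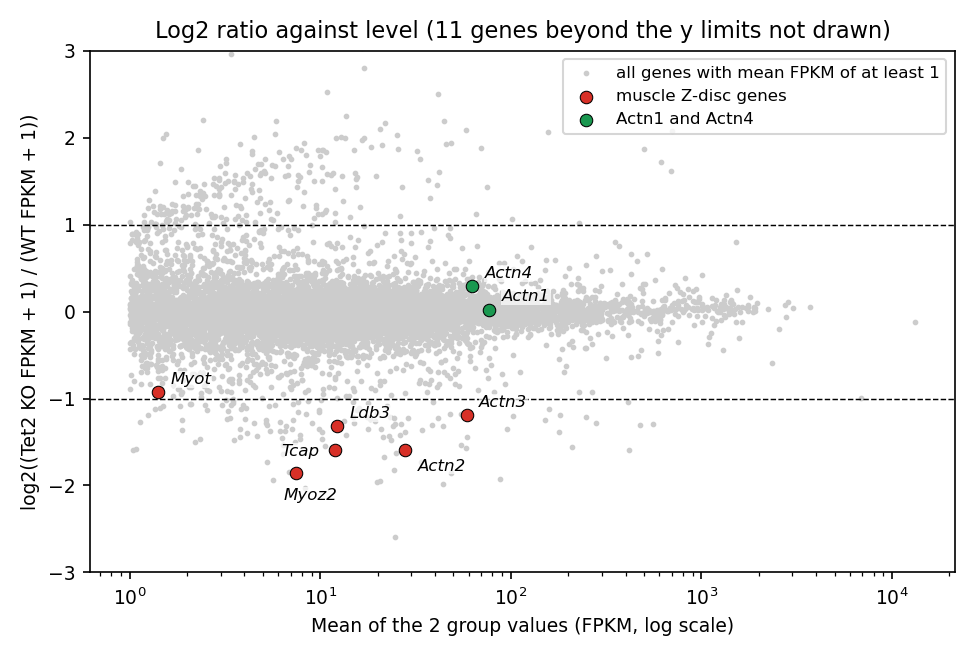
Log2 ratio of Tet2 KO over WT (y axis, pseudocount of 1) against the mean FPKM of both groups (x axis, log scale) for genes with a mean of at least 1 FPKM; dashed lines mark 2-fold. Muscle Z-disc genes lie from -1.85 to -0.93, below the central 90% of all genes, and Actn1 and Actn4 lie in the dense band around 0; 11 genes fall outside the y axis.

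The sequence before the transcript start was examined because muscle genes are bound by MyoD and myogenin at E-boxes, and because Tet2 acts on methylated CpG sites. RefSeq starts in GRCm38.p6, a later build than the mm9 of the expression table, were given for Actn1, Actn2, Actn4, Ldb3 and Myoz2. The other 5 genes had no entry. The 250 bases before each start were searched on both strands for the E-box CANNTG, its form CAGCTG, the M-CAT element CATTCC and the MEF2 site. Among 32851 windows of the same length, 66.2% held an E-box, 13% held CAGCTG, 12.6% held the M-CAT element and 2.92% held a MEF2 site. A match is a description and does not show that a factor binds.

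Shown are the windows of 2 muscle genes and of both broadly expressed alpha-actinins, on the minus strand, 5′ to 3′, with each E-box in capitals. They lie at chr3:123034988-123035237 (Myoz2), chr13:12340733-12340982 (Actn2), chr12:80260364-80260613 (Actn1) and chr7:28962333-28962582 (Actn4).
Myoz2: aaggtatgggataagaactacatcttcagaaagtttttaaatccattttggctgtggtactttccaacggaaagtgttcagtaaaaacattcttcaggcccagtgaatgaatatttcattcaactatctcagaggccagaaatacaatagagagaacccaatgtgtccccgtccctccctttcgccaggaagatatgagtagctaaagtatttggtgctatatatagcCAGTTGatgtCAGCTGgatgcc
Actn2: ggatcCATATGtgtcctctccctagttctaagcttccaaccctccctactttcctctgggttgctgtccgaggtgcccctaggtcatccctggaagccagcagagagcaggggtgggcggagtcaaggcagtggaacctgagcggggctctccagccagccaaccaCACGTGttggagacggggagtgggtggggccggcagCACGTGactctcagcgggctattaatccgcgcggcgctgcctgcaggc
Actn1: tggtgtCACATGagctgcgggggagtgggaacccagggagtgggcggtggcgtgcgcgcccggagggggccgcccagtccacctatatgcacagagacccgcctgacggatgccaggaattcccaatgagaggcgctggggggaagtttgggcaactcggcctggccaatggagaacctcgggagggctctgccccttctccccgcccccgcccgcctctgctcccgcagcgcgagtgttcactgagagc
Actn4: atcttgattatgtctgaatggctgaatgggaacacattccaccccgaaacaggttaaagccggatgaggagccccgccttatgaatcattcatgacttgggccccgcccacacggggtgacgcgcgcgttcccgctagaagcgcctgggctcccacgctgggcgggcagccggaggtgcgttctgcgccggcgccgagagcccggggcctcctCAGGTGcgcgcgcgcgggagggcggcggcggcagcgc

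Myoz2, which differed most between the groups, held 2 E-boxes. One begins 22 bases before the start, and the other, a CAGCTG, begins 12 bases before it. A MEF2 site begins 33 bases before the start and was the only MEF2 match among the 5 genes. Actn2 held 3 E-boxes, of which the pair closest to the start, at 84 and 48 bases, both read CACGTG. Actn1 held 1 E-box, CACATG, and Actn4 held 1, CAGGTG, besides an M-CAT element. Ldb3 had 2 listed starts, and neither window held any of these motifs. E-boxes were thus found before both muscle and broadly expressed genes, as in most windows of the genome.

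**Figure D4:**
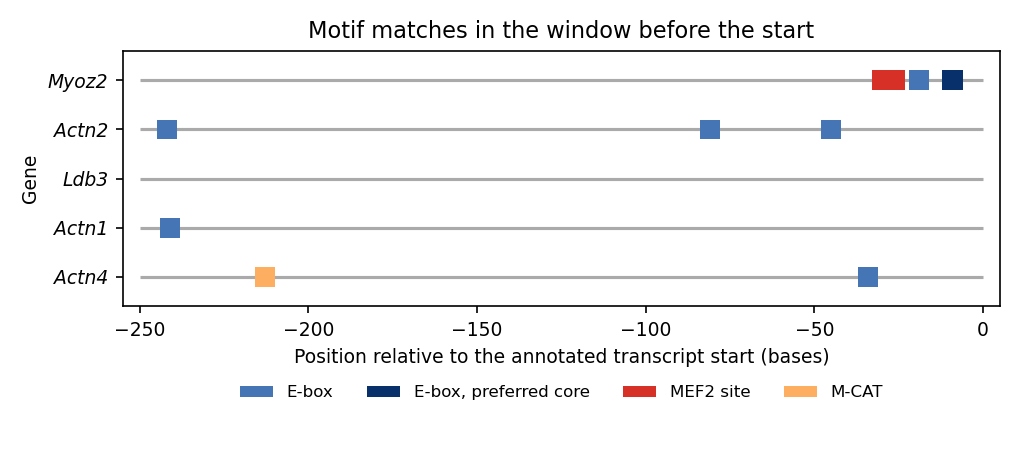
Positions of motif matches in the 250 bases before the RefSeq start; the x axis is the distance from the start in bases, each row is a gene and each box is a match, E-boxes of the form CAGCTG in dark blue. In Myoz2 all 3 sites lie within the last 33 bases; for Ldb3 the row is empty in both listed windows, of which 1 row stands for both.

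The windows also differed in base composition. GC content was 40.8% for Myoz2 and 63.2% for Actn2, 68.4% for Actn1 and 67.6% for Actn4, and the median window of the genome had 52.4%. Myoz2 held 3 CpG sites, Ldb3 5 in either window and Actn2 12, against 18 for Actn1 and 29 for Actn4. The median window had 6 CpG sites. DNA methylation was not analysed here.

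Genes whose products work beside these proteins at the Z-disc were then examined as a list of 25. Of the 24 with a mean of at least 1 FPKM, 9 were lower and 1 was higher by 2-fold, beside 1.21% and 2.08% of all genes. The median log2 ratio was -0.81. Csrp3, the muscle LIM protein, differed most, with 71.1 FPKM in WT and 17.3 FPKM in Tet2 KO (log2 ratio of -1.98). It was followed by Smpx, a small muscle protein (-1.62), and by Fhl1, a LIM-only protein (-1.47). The Xin proteins Xirp2 and Xirp1, which bind actin, had log2 ratios of -1.32 and -1.30. Pdlim3, an alpha-actinin-binding PDZ and LIM protein related to Ldb3, had 78.9 FPKM in WT and 33.9 FPKM in Tet2 KO (-1.20). Mypn (myopalladin) and Sorbs2 had log2 ratios of -1.12 and -1.02.

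The other partners did not reach 2-fold. Titin (Ttn), whose ends Tcap binds, had 107.7 FPKM in WT and 56.2 FPKM in Tet2 KO, a log2 ratio of -0.93, against -1.59 for Tcap. Palld (palladin), Neb (nebulin), Flnc (filamin C) and Cryab had log2 ratios of -0.97, -0.86, -0.76 and -0.72. Pdlim5 and Capza2, broadly expressed like Actn1, had log2 ratios of -0.03 and 0.00. Of all 24 measured partners, 22 had a log2 ratio below 0 and 2 had one above 0. Des (desmin), the intermediate filament of muscle that myoblasts already make, had 448.6 FPKM in WT and 371.8 FPKM in Tet2 KO (-0.27). The exception was Ankrd2, an ankyrin repeat protein that responds to stretch, which had 3.34 FPKM in WT and 8.49 FPKM in Tet2 KO, a log2 ratio of 1.13. Nebl, the gene of nebulette, a nebulin relative of cardiac muscle, was at 0.209 FPKM in WT and 0.205 FPKM in Tet2 KO.

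Genes of adhesions and stress fibres, where Actn1 and Actn4 act, formed a list of 22. Of the 21 with a mean of at least 1 FPKM, 0 were lower and 0 were higher by 2-fold, beside 1.21% and 2.08% of all genes. At such shares a list of this size can hold none, so the counts do not set it apart. The median log2 ratio was 0.02. Members ran from -0.21 for Vcl (vinculin) to 0.19 for Tln1 (talin). Svil (supervillin) and Cald1 (caldesmon) were at -0.20 each, and Pxn (paxillin) and Ilk at 0.14 and 0.06. Actn4, at 0.29, lay above all 21, and Actn1, at 0.02, lay near the median.

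Calcineurin, the partner of the myozenins, was examined with its regulators and its NFAT targets. Of 11 genes, 8 had a mean of at least 1 FPKM. None of these was lower or higher by 2-fold, beside 1.21% and 2.08% of all genes, so the count does not set the list apart. The median log2 ratio of the 8 was -0.0041. The catalytic subunits Ppp3ca and Ppp3cb had log2 ratios of -0.17 and 0.06. Rcan1, a calcineurin inhibitor, was lowest, with 11.1 FPKM in WT and 7.70 FPKM in Tet2 KO (-0.48). The difference of Myoz2 thus had no counterpart of like size among these 8 genes.

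**Figure D5:**
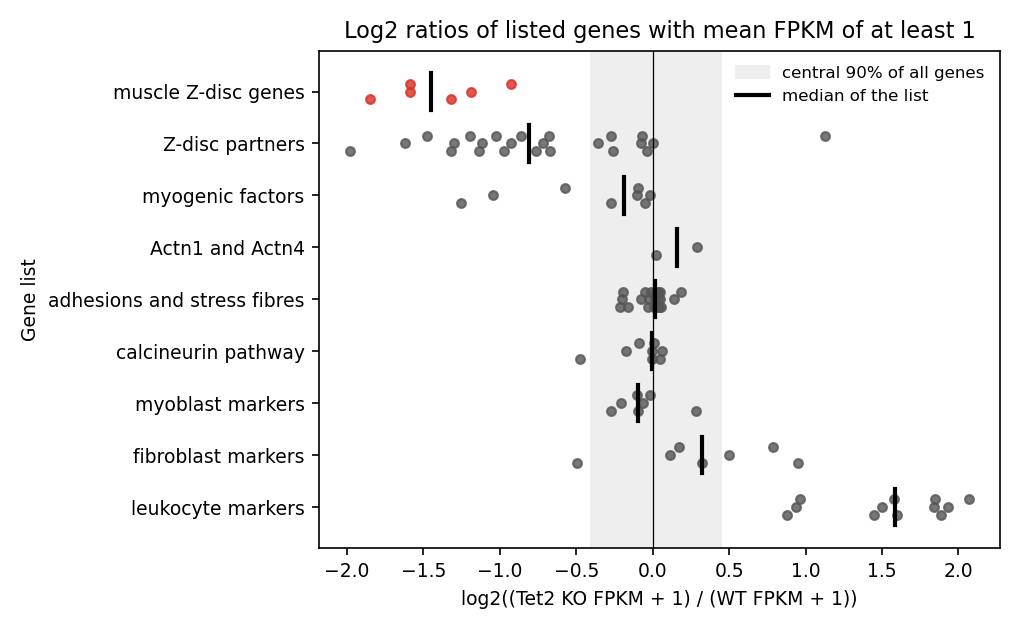
Log2 ratio of Tet2 KO over WT (x axis, pseudocount of 1) for listed genes with a mean of at least 1 FPKM; each point is a gene, black bars are list medians and the grey band holds the central 90% of all genes. Muscle Z-disc genes (median of -1.45) and their partners (-0.81) lie to the left, adhesion (0.02) and calcineurin (-0.0041) genes lie near 0, and leukocyte markers (1.59) lie to the right.

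Transcription factors of the muscle lineage were set beside the Z-disc genes. Myog (myogenin), which acts at the start of differentiation, had 553.6 FPKM in WT and 268.1 FPKM in Tet2 KO. Its WT level was above that of Myod1, 335.7 FPKM, in cells harvested from proliferation medium. The log2 ratio was -1.04 for Myog and -1.26 for Mef2c. Both were past 2-fold. Mef2a had -0.57 and Mef2d -0.27. Myod1, Myf5, Srf and Pax7 lay between -0.10 and -0.02. Actn2, Tcap and Myoz2 differed from Myog by -0.55, -0.55 and -0.81 in log2 ratio. Ldb3 and Actn3 differed from it by -0.27 and -0.15, and Myot by 0.12. Without a pseudocount Myot was at -1.71 and Myog at -1.05, so the sign for Myot depended on the pseudocount.

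The cells were checked against markers of cell types. All 7 myoblast markers exceeded 1 FPKM, with a median log2 ratio of -0.10 and a summed level of 1226 FPKM in WT and 1117 FPKM in Tet2 KO. Heart muscle, which also expresses Actn2, Ldb3, Myoz2 and Tcap, has 6 markers in the list, none above 0.543 FPKM. Leukocyte markers moved with the groups, although cells with CD45 or CD11b had been left out of the sort. All 12 found in the table were higher in Tet2 KO, 9 of them by 2-fold, beside 2.08% of all genes. Adgre1, counted among the 9, had 0.712 FPKM in WT and 3.67 FPKM in Tet2 KO. Its mean reached 1 FPKM only through the Tet2 KO level. Log2 ratios of the 12 ran from 0.88 for Cd14 to 2.07 for Lyz2, and none was listed at 0. Lyz2 encodes the lysozyme of macrophages. Their summed level was 120.9 FPKM in WT and 475.0 FPKM in Tet2 KO. Fibroblast markers had 178.0 and 207.4 FPKM in sum, mostly from Col3a1, at 151.6 and 170.8 FPKM (log2 ratio of 0.17). Of 7 measured members 6 were higher, from -0.50 for Postn to 0.95 for Dcn. None reached 2-fold, beside 2.08% of all genes that were higher. Fibroblast markers thus leaned the same way as leukocyte markers, by less. Smooth muscle markers had 260.1 and 166.3 FPKM in sum, mostly from Acta2, which had a log2 ratio of -0.69. Smtn had 13.1 FPKM in WT and 9.02 FPKM in Tet2 KO, a log2 ratio of -0.50. Tagln had 9.93 FPKM in WT and a log2 ratio of 0.14. Myh11 and Cnn1, which define that cell type, were under 0.2 FPKM. Lmod1 had 0.265 FPKM in WT and 0.176 FPKM in Tet2 KO. Endothelial markers had 5.59 and 4.68 FPKM in sum, and Pecam1 alone had a mean of at least 1 FPKM. The part of these cells in the levels of the Z-disc genes was not tested. Relative to the median of the myoblast markers, the same 5 Z-disc genes were lower by 2-fold, beside 1.02% of all genes. The median of the 6 muscle genes was then -1.35.

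Genes next to the Z-disc genes on the chromosome were compared to see whether differences extended beyond each locus. The nearest gene on either side with a mean of at least 1 FPKM was taken, 20 genes in all. None was lower or higher by 2-fold, beside 1.21% and 2.08% of all genes, so the count does not set the neighbours apart. Their log2 ratios ran from -0.68 to 0.15 with a median of -0.04. Beside Tcap lie Stard3, 2.70 kb away, and Pgap3, 3.72 kb away, with log2 ratios of 0.03 and -0.03. Actn3 lies 303 bases from Ctsf and 758 bases from Zdhhc24, which had -0.35 and -0.36. These neighbours of Tcap and Actn3 were thus nearer to 0 than Tcap and Actn3 themselves. The neighbours of Actn2, Mtr and Heatr1, had 0.00 and 0.12. Those of Ldb3, Bmpr1a and Wapl, had -0.15 and -0.06. Of the myozenin genes, 2 had a gene of the synaptopodin 2 family, also Z-disc proteins, next to them. Synpo2l lies 2.41 kb from Myoz1 and had a log2 ratio of -0.68, lower than the -0.40 of Myoz1 itself. Synpo2, 41.5 kb from Myoz2, had -0.67. Dpysl3, the nearest measured gene on 1 side of Myot at a distance of 895.8 kb, had -0.68. Synpo2l, Synpo2 and Dpysl3 lay below -0.65, the 2.5th percentile of all genes. The highest neighbour was Zfp36l1, at 0.15 beside Actn1.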

How the data were processed

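Per the study's methods and the submitters' processing notes, TruSeq libraries were sequenced in pairs, trimmed and aligned to mm9 with TopHat2 2.0.13. The authors deposited 1 FPKM value per gene and group, made with Cuffdiff 2.2.1. The gene annotation and the way both libraries of a group were combined are not given in the sources used here. The table also holds the authors' own comparison (a log2 ratio, a statistic, p-values, q-values and a call), which was not used. Whether the libraries came from separate animals is not stated.

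Members and gene lists were chosen with earlier results of these data known. Log2 ratios took a pseudocount of 1, and counts took genes with a mean of at least 1 FPKM and 2-fold. No test could be made on 1 value per group, and ranks are descriptions. The fold computation was checked on simulated data. Alternatives were the pseudocount, the level limit, the fold, TPM and centring. Genes named were the members, their neighbours, partners and calcineurin genes past 2-fold, list extremes and myogenic factors. Ttn, Des, Nebl, Palld, Neb, Flnc, Cryab, Rcan1, Ppp3ca, Ppp3cb, Myh11, Cnn1, Smtn, Lmod1, Col3a1 and Adgre1 were chosen after their values were seen. The values of 1 partner gene past 2-fold are not reported here. Table starts count from 0, so 1 was added. Exons and coding sequences came from GENCODE vM1 (mm9), promoter windows from RefSeq (GRCm38.p6). Python 3.11.15, numpy 2.4.6, pandas 2.3.3 and matplotlib 3.10.9 were used.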

Additional observations from a re-analysis of the deposited data

How the results depend on the processing

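No paired analysis was possible because no expression value of a single library was at hand, and leaving out each replicate was not run for the same reason. Values are given where a median differed by more than 0.1 on the log2 scale or a count by over 1.5 times. The median of the muscle genes, -1.45, was -1.61 with a pseudocount of 0.1, -1.68 with none, -1.25 with no limit on low levels and -1.59 for a mean of at least 5 FPKM. Without any 1 of the 6 genes it was -1.32 or -1.59. At 3-fold, 3 of the Z-disc genes (Actn2, Myoz2 and Tcap) and 2 of the partners were lower, beside 0.214% of all genes. At 1.5-fold, 16 partners were lower, beside 2.89% of all genes. The share of muscle alpha-actinin was 43.0% in WT and 16.3% in Tet2 KO from Actn2 and Actn4 alone. The count of 5 genes was 5 or 6 under the other alternatives, and the difference between muscle and broadly expressed alpha-actinins ran from -1.59 to -1.55. Centring on the myoblast markers was chosen after seeing the data. The largest shift of a single gene by the pseudocount was that of Myoz1, from -0.40 to -1.44, as its level is below 1 FPKM. Depth was unknown, which limits genes of low level most.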
